A study of Mus musculus with 6 samples.

Results

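The genes described here are 10 members of the Rgs family, which encode regulators of G-protein signalling: Rgs2, Rgs3, Rgs4, Rgs6, Rgs7, Rgs8, Rgs10, Rgs14, Rgs16 and Rgs17. They were taken by gene symbol from a list of names, and make up 10 of the 21 numbered Rgs genes and 10 of the 43432 genes in the tables. Expression was measured by RNA-seq of polyadenylated RNA from primary cortical neurons of wild-type C57BL/6 embryos (stage E16.5), with male and female tissue pooled. Cells of all 3 groups were kept for 7 days in vitro and silenced overnight with 1 μM tetrodotoxin, a blocker of voltage-gated sodium channels, and 100 μM DL-AP5, a blocker of NMDA receptors. The 0 h group was harvested from the silenced state, and the other groups after 2 h or 6 h in 55 mM KCl, which depolarizes the membrane and opens voltage-gated calcium channels. Each group had 2 libraries, called biological duplicates by the submitters. Nothing in the labels says whether they came from separate dissections, so the p-values measure the spread between these libraries. The silenced group is the only control, so time in culture without KCl was not measured.

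Heterotrimeric G proteins carry the signal of a receptor while their alpha subunit holds GTP, and RGS proteins end that signal by speeding up GTP hydrolysis. The R4 members (Rgs2, Rgs3, Rgs4, Rgs8 and Rgs16) are mostly small proteins built around the RGS domain. The R7 members (Rgs6 and Rgs7) work in a complex with the G beta subunit Gnb5, the R12 members are Rgs10 and Rgs14, and Rgs17 belongs to the RZ group, which acts on Gi-type and Gz alpha subunits.

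The libraries held between 25959298 and 28573067 expected counts, the estimated number of reads per gene given by RSEM. Over 12290 genes averaging 50 or more normalized counts, the log2 difference between the replicates had a standard deviation of 0.246 in the 0 h group, 0.429 in the 2 h group and 0.214 in the 6 h group. The wider spread at 2 h went with base composition: across genes, the replicate ratio at 2 h had a Spearman correlation of -0.719 with GC content, against -0.392 at 0 h and -0.289 at 6 h. The defining markers of neurons summed to between 4954 and 5495 TPM (a level per transcript length, scaled to the same total in each library) in every library. The 5 markers of inhibitory neurons summed to 286.6 and 284.0 TPM before KCl, 385.6 and 381.3 after 2 h, and 586.6 and 550.9 after 6 h, and the 7 of astrocytes to 591.1 and 632.1, 566.9 and 567.5, and 474.3 and 456.8 TPM. Neuronal markers were higher in both 0 h libraries (5495 and 5425 TPM) than in the other 4 (4954 to 5106), but 3 of 6 rose and 1 fell by adjusted p at 2 h, as did 3 and 1 at 6 h. The 1 that fell, and was called at 6 h, was the abundant Tubb3 (log2 -1.01, adjusted p = 1.37e-12). Of 6 markers of progenitors and dividing cells, 2 rose and 1 fell by adjusted p at 6 h, and Nes was called higher (1.08, adjusted p = 3.54e-13). Of the 5 inhibitory markers, 5 rose and 0 fell by adjusted p at 2 h, and 4 rose and 0 fell at 6 h. By the rule given below, 1 of 5 was called higher at 2 h and 2 of 5 at 6 h. Of the 4 markers of excitatory neurons, 2 rose and 0 fell by adjusted p at 2 h, and 1 rose and 1 fell at 6 h. Of the 7 astrocyte markers, 0 rose and 0 fell by adjusted p at 2 h, and 0 rose and 4 fell at 6 h. Among all genes, 12.3% were higher and 14.2% lower by adjusted p at 2 h, and 23.7% and 21.7% at 6 h. Called higher were 3.62% of all genes at 2 h and 9.1% at 6 h, and called lower 5.94% and 10.2%. No marker of these lists was at 0 in all libraries. More cells of a type and more RNA per cell cannot be told apart in bulk samples, and the part of these marker shifts in the results on Rgs genes was not tested.

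All positions are on GRCm38 (mm10), with the GENCODE M21 annotation. Of the R4 genes, Rgs2 (ENSMUSG00000026360) lies on the minus strand of chromosome 1 at 143999338 to 144004161, Rgs4 (ENSMUSG00000038530) on the minus strand of chromosome 1 at 169741477 to 169747642, and Rgs3 (ENSMUSG00000059810) on the plus strand of chromosome 4 at 62559847 to 62704001. Rgs8 (ENSMUSG00000042671) at 153653025 to 153700323 and Rgs16 (ENSMUSG00000026475) at 153740349 to 153745468 are neighbours on the plus strand of chromosome 1, with 40025 bases between them. The R7 gene Rgs6 (ENSMUSG00000021219) lies on the plus strand of chromosome 12 at 82588292 to 83162056, and Rgs7 (ENSMUSG00000026527) on the minus strand of chromosome 1 at 175059087 to 175492500. Rgs10 (ENSMUSG00000030844) lies on the minus strand of chromosome 7 at 128373621 to 128418758, Rgs14 (ENSMUSG00000052087) on the plus strand of chromosome 13 at 55369732 to 55384687, and Rgs17 (ENSMUSG00000019775) on the minus strand of chromosome 10 at 5825663 to 5922400. Expected counts of all 10 genes were listed as whole numbers in all 6 libraries, exactly so at the 2 decimals the tables give. Annotated genes that overlap them, where listed in the tables, had at most 1 count in a library.

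The promoters of Rgs2, Rgs4 and Rgs16 are shown because these were the members called higher at both times. Each is the RefSeq sequence (GRCm38.p6) from 250 bases before to 50 bases after the transcription start, 5′ to 3′ on the strand of the gene. They cover chr1:144004100-144004399, chr1:169747593-169747892 and chr1:153740103-153740402. Capitals mark TGACG on either strand, the core that binding sites of the calcium-responsive factor CREB hold.
Rgs2: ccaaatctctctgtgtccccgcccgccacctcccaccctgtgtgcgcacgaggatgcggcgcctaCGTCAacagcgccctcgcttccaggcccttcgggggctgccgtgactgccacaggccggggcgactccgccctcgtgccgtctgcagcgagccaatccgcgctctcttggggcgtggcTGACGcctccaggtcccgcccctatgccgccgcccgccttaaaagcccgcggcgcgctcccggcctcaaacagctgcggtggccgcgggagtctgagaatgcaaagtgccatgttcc
Rgs4: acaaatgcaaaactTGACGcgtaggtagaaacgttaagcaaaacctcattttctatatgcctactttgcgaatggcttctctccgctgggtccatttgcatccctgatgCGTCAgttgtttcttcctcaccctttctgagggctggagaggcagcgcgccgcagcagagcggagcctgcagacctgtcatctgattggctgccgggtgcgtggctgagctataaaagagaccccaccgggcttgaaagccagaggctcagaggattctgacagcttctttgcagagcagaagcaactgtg
Rgs16: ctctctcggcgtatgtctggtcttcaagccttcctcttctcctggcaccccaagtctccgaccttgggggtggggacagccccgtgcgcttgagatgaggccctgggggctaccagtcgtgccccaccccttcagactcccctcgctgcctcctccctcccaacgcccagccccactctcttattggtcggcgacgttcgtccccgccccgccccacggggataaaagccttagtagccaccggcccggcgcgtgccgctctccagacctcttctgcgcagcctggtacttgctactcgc
The promoter of Rgs2 held a pair of TGACG matches, whose first bases lie at position -185 on the opposite strand and -67 on the strand of the gene. Rgs4 also held a pair, at -236 on its own strand and -141 on the opposite strand, and Rgs16 held none. The RefSeq table had 12 promoters for 9 of the members, and Rgs14 was not matched. TGACG was in 3 of the 12 (those of Rgs2 and Rgs4 and 1 of Rgs8), beside 20.8% of all 32851 promoters of this length. The full palindrome TGACGTCA, which contains TGACG, was in 0 of 12 and in 1.79% of all. The AP-1 motif TGANTCA was in 1 of 12, the promoter of Rgs17 at -122, and in 7.81% of all, and the CArG box was in 0 of 12 and in 1.63% of all. All motifs were searched on both strands, and a match is a run of letters, not a measured binding site.

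Depolarization for 2 h raised 5 of the 10 genes (Rgs2, Rgs4, Rgs16, Rgs6 and Rgs7) at an adjusted p of at most 0.05 in DESeq2 and lowered 0. Among all 16840 genes with an adjusted p, 12.3% were higher and 14.2% lower by that rule. With a log2 fold change above 1 as well, which is what called means below, 3 members were called higher (Rgs2, Rgs4 and Rgs16) and 0 lower, against 3.62% and 5.94% of all genes. At an unadjusted p under 0.05, 5 members were higher and 0 lower, and edgeR called 3 and 0. After 6 h, 6 members (the same 5 and Rgs10) were higher by adjusted p and 0 lower, beside 23.7% and 21.7% of 17277 genes. Called higher were 4 (Rgs2, Rgs4, Rgs16 and Rgs10), against 9.1% of all genes, and called lower 0, against 10.2%. The unadjusted counts at 6 h were 7 higher and 0 lower, and edgeR called 4 and 0. From 2 h to 6 h, 7 members (those 6 and Rgs8) rose and 1 (Rgs14) fell by adjusted p, beside 24.1% and 21.2% of 16404 genes, but 0 were called in either direction, where 10.1% of all genes were called higher and 8.02% lower. Unadjusted, 8 were higher and 1 lower from 2 h to 6 h, and edgeR called 0 and 0. The median log2 fold change of the members was 0.32 at 2 h and 0.92 at 6 h against 0 h, where that of all genes was 0.015 and 0.0. It was 0.52 from 2 h to 6 h, against -0.005 for all genes. The 2 h and 6 h comparisons share the 0 h libraries, so they are not independent of each other.

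**Figure D1:**
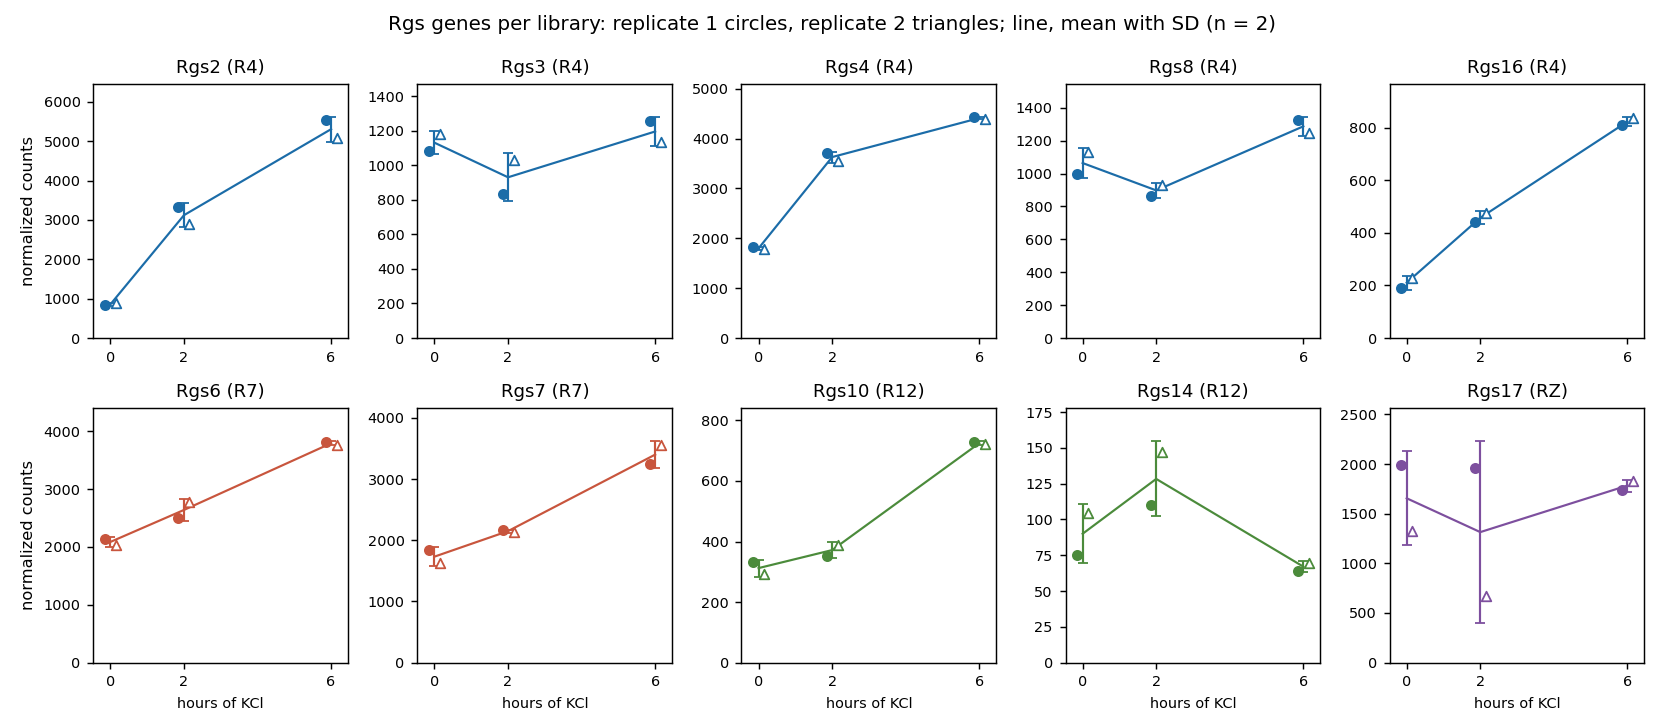
Normalized counts (vertical axis, from 0, its own scale in each panel) of the 10 Rgs genes against hours of KCl (horizontal axis), with replicate 1 as circles, replicate 2 as triangles, and a line through the means with SD (n = 2). Rgs2 and Rgs16 climbed at each time, Rgs4 climbed mostly by 2 h, Rgs6, Rgs7 and Rgs10 were highest at 6 h, and the replicates of Rgs17 lay far apart at 2 h.

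Rgs2, a regulator known to prefer Gq alpha subunits and induced by stimuli in many cell types, changed most against 0 h among the 10. Its normalized count (expected count divided by the size factor of the library) was 834.4 and 877.3 before KCl, 3333 and 2909 after 2 h, and 5529 and 5085 after 6 h. No group overlapped another, and the level rose at both steps. The log2 fold change was 1.87 ± 0.13 (SE) at 2 h (3.65-fold, adjusted p = 7.53e-45) and 2.63 ± 0.13 at 6 h (6.2-fold, adjusted p = 3.4e-90). From 2 h to 6 h Rgs2 rose a further 1.7-fold (log2 0.77 ± 0.13, adjusted p = 1.06e-08). Per length, it went from 27.9 and 30.02 TPM at 0 h to 145.11 and 139.12 TPM at 6 h.

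Rgs4, which acts on Gi/o and Gq alpha subunits and is abundant in cortical neurons, reached most of its rise by 2 h. The normalized counts were 1817 and 1782 before KCl, 3709 and 3552 after 2 h, and 4431 and 4395 after 6 h. Replicates differed little and the groups did not overlap. The change was 1.01 ± 0.1 on the log2 scale at 2 h (2.02-fold, adjusted p = 4.91e-23), and 1.29 ± 0.1 at 6 h (2.45-fold, adjusted p = 5.43e-38). The later step, from 2 h to 6 h, was 1.22-fold (log2 0.28 ± 0.1, adjusted p = 0.00993). That later step did not pass with GC correction (0.086, adjusted p = 0.477), with library totals (0.203, adjusted p = 0.0901) or without any 1 library of the 0 h or 6 h group (adjusted p = 0.124 to 0.244). At 2 h Rgs4 sat at the fold threshold. It stayed higher but was no longer called without replicate 1 of the 2 h group (log2 0.971) or with library totals as size factors (0.846).

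Rgs16, a close relative of Rgs4, was less abundant than Rgs2 and Rgs4 at each time. It had normalized counts of 191.7 and 229.2 before KCl, 439.4 and 474.5 after 2 h, and 810.0 and 835.7 after 6 h. The groups did not overlap and the level rose at each step. The log2 fold change was 1.12 ± 0.17 at 2 h (2.17-fold, adjusted p = 1.54e-09), 1.97 ± 0.17 at 6 h (3.91-fold, adjusted p = 8.56e-30) and 0.85 ± 0.16 from 2 h to 6 h (1.8-fold, adjusted p = 1.11e-06). With library totals the 2 h value was 0.950 and no longer called.

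The remaining R4 genes passed no test against 0 h in the DESeq2 fit of all libraries. Rgs8, the chromosomal neighbour of Rgs16, had normalized counts of 998.7 and 1129 before KCl, 865.8 and 929.4 after 2 h, and 1328 and 1246 after 6 h. It was lowest at 2 h, but the difference from 0 h missed the threshold (log2 -0.25 ± 0.14, 95% interval -0.51 to 0.02, adjusted p = 0.19), as did that of 6 h from 0 h (0.27 ± 0.14, interval 0.01 to 0.54, adjusted p = 0.0861), which passed with GC correction (0.359, adjusted p = 0.00357). With library totals Rgs8 and Rgs3 were both lower at 2 h (-0.412, adjusted p = 0.0231, and -0.446, adjusted p = 0.0345). Rgs8 rose 1.43-fold from 2 h to 6 h (log2 0.52 ± 0.14, adjusted p = 0.000536), a step that did not pass without replicate 1 of the 6 h group (adjusted p = 0.0855).
Rgs3, whose long forms carry domains outside the RGS domain, showed the same order of group means. Its normalized counts were 1082 and 1178 before KCl, 831.8 and 1028 after 2 h, and 1255 and 1135 after 6 h, and the 6 h values overlapped those at 0 h. In that fit no comparison passed for Rgs3: log2 -0.28 ± 0.16 at 2 h (interval -0.6 to 0.03, adjusted p = 0.202), 0.08 ± 0.16 at 6 h (interval -0.23 to 0.39, adjusted p = 0.722) and 0.36 ± 0.16 from 2 h to 6 h (adjusted p = 0.0526). With GC correction, Rgs3 was lower at 2 h (-0.311, adjusted p = 0.0289, or 0.0683 with the replicate block as well) and rose from 2 h to 6 h (0.534, adjusted p = 3.12e-05), and both also passed without replicate 2 of the 2 h group (-0.460, adjusted p = 0.00751, and 0.537, adjusted p = 0.000894).

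Both R7 genes rose by 6 h without reaching the fold threshold, and their smaller differences at 2 h depended on the setting. Rgs7, best known for its part in neuronal Gi/o signalling, had normalized counts of 1840 and 1626 before KCl, 2166 and 2134 after 2 h, and 3249 and 3553 after 6 h. At 2 h it was 1.24-fold higher (log2 0.31 ± 0.12, adjusted p = 0.0469), a difference that did not pass in edgeR (adjusted p = 0.0655), with library totals (0.459) or without any 1 library of the 0 h or 6 h group (0.165 to 0.551). With the replicate block in DESeq2, the 2 h difference of Rgs7 did not pass either (adjusted p = 0.08). The 6 h value was 1.96-fold (log2 0.97 ± 0.12, adjusted p = 5.44e-14). It crossed the fold threshold without replicate 1 of the 0 h group (1.067) or without replicate 1 of the 6 h group (1.034).
Rgs6, the other R7 gene, had normalized counts of 2145 and 2030 before KCl, 2505 and 2776 after 2 h, and 3816 and 3772 after 6 h, with no overlap between groups. It was 1.26-fold higher at 2 h (log2 0.34 ± 0.11, adjusted p = 0.0132) and 1.82-fold at 6 h (log2 0.86 ± 0.11, adjusted p = 2.56e-13). The 2 h difference of Rgs6 did not pass with library totals (0.174, adjusted p = 0.342) or without any 1 library of the 0 h or 6 h group (adjusted p = 0.122 to 0.358). From 2 h to 6 h, Rgs6 rose 1.44-fold (adjusted p = 1.7e-05) and Rgs7 1.58-fold (adjusted p = 5.84e-07).

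The R12 genes moved in different directions late in the series. Rgs10, a short protein that acts on Gi-type alpha subunits, had normalized counts of 332.0 and 292.4 before KCl, 353.5 and 389.8 after 2 h, and 728.7 and 720.6 after 6 h. Its rise came between 2 h and 6 h. The 2 h difference did not pass (log2 0.25 ± 0.16, interval -0.07 to 0.57, adjusted p = 0.291), while 6 h was 2.32-fold above 0 h (log2 1.22 ± 0.16, adjusted p = 5.9e-13) and 1.95-fold above 2 h (log2 0.96 ± 0.16, adjusted p = 1.87e-08). With library totals the 6 h value against 0 h was 0.970 and lost the call. Without replicate 2 of the 2 h group the 6 h value against 2 h was 1.050 and gained it. Rgs10 is also known from microglia, whose 8 markers summed to 3.88 and 9.72 TPM before KCl, 4.35 and 6.44 after 2 h, and 4.48 and 6.13 after 6 h. Rgs10 itself stood at 45.81 and 44.53 TPM at 0 h and 101.8 and 89.4 TPM at 6 h. Of those markers 1 of 8 was called higher at 6 h, P2ry12, at 0.63 and 0.64 TPM.
Rgs14, which also binds Ras-type GTPases and is best known from hippocampal neurons, was the lowest of the 10. It had 85 and 124 expected counts before KCl, 110 and 142 after 2 h, and 60 and 65 after 6 h. After normalization these were 75.5 and 104.5, 109.8 and 146.8, and 64.2 and 69.9. The 2 h libraries were the highest and the 6 h libraries the lowest. Only the fall from 2 h to 6 h passed (log2 -0.94 ± 0.34, 1.91-fold lower, adjusted p = 0.0141). It was called without replicate 1 of the 2 h group (-1.123) and with library totals (-1.019), but did not pass with the replicate block and GC correction together (-0.741, adjusted p = 0.0769), without replicate 2 of the 2 h group (-0.698, adjusted p = 0.227) or without either 6 h library (adjusted p = 0.164 and 0.115). Against 0 h the values were 0.51 ± 0.33 at 2 h (adjusted p = 0.274) and -0.43 ± 0.34 at 6 h (adjusted p = 0.319).

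Rgs17, the RZ member, could not be placed at 2 h because its replicates differed widely. Its normalized counts were 1989 and 1321 before KCl, 1960 and 668.9 after 2 h, and 1740 and 1826 after 6 h. The log2 ratio of replicate 1 to replicate 2 was 1.55 at 2 h, whereas those of the other 9 members at 2 h lay between -0.42 and 0.20. Rgs17 had the lowest GC content of the 10, at 41.2%. The fitted change was -0.33 ± 0.64 at 2 h (interval -1.59 to 0.93, adjusted p = 0.79) and 0.11 ± 0.64 at 6 h (interval -1.15 to 1.37, adjusted p = 0.913). The 2 h interval includes a fall of more than 1, and the 6 h interval a change of more than 1 in either direction. Without replicate 1 of the 2 h group, Rgs17 was called lower at 2 h (-1.317, adjusted p = 0.00097) and higher from 2 h to 6 h (1.422, adjusted p = 0.000185). Without replicate 2 of that group, the values were 0.227 and -0.123 and neither passed.

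**Figure D2:**
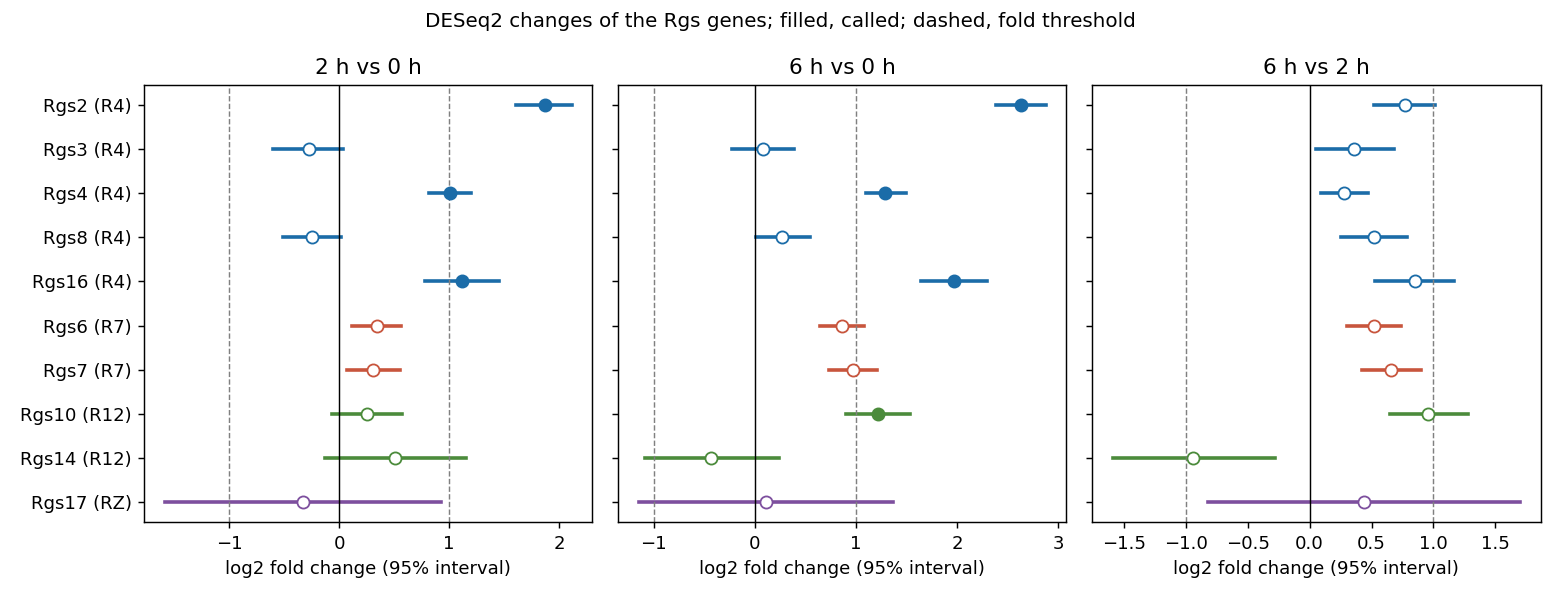
Log2 fold change (horizontal axis) of each Rgs gene (vertical axis) in the 3 comparisons with the 95% interval as a bar, filled where called and with dashed lines at the fold threshold of 1. Filled points are 3 genes at 2 h, 4 at 6 h and 0 from 2 h to 6 h, and the bars of Rgs17 are the widest.

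The 6 genes that rose by 6 h differed in how much of the rise was present at 2 h. Taking the mean difference between 6 h and 0 h in normalized counts as the whole rise, Rgs4 had 70.1% of it at 2 h (67.1% and 73.1% from the single 2 h libraries). Rgs2 had 50.9% (46.1% and 55.7%) and Rgs16 40.2% (37.4% and 43.1%). The R4 genes were followed by Rgs6 at 32.4% (24.4% and 40.3%), Rgs7 at 25% (24% and 25.9%) and Rgs10 at 14.4% (10% and 18.8%). The 2 h libraries of Rgs16 and Rgs6 overlapped on this measure, as did those of Rgs6 and Rgs7, while Rgs4, Rgs2 and Rgs16 stood apart from one another. These shares are a description and were not tested.

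Levels may be compared between genes in TPM. At 0 h the order of mean levels was Rgs7 (68.7 TPM), Rgs3 (52.6), Rgs4 (48.3), Rgs10 (45.2), Rgs6 (40.2), Rgs2 (29.0), Rgs8 (19.1), Rgs17 (19.0), Rgs16 (7.33) and Rgs14 (3.79). Of the neighbours in that order, the replicates of Rgs8 and Rgs17 overlapped. At 2 h Rgs4 led with 86.2 TPM, followed by Rgs7 (78.6) and Rgs2 (75.2), which overlapped each other, and then Rgs10 (51.6), Rgs6 (46.5) and Rgs3 (39.2), each overlapping the next. Rgs16 followed with 14.1 TPM, above Rgs8 (13.0) and Rgs17 (11.7), which overlapped each other, and Rgs14 (4.45). The replicates of Rgs17 (16.27 and 7.17 TPM) also overlapped those of Rgs16 (13.42 and 14.73 TPM). At 6 h no neighbours overlapped: Rgs2 was highest (142.1 TPM), then Rgs7 (124.7), Rgs4 (104.6), Rgs10 (95.6), Rgs6 (71.0), Rgs3 (46.8), Rgs16 (25.3), Rgs17 (19.2), Rgs8 (17.9) and Rgs14 (2.56). Rgs2 thus moved from the sixth place to the first, and Rgs3 from the second to the sixth.

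The summed level of the 10 genes was 338.4 and 328.1 TPM before KCl, 422.5 and 418.2 after 2 h, and 652.8 and 646.8 after 6 h. The groups did not overlap, and the replicates of a group lay close together. Rgs2 grew from a mean of 8.7% of this sum to 17.9% at 2 h, and then to 21.9%, while Rgs3 went from 15.8% to 9.33% and 7.2%. The mean level of Rgs3 itself was 52.6, 39.2 and 46.8 TPM, so its share at 6 h fell mostly because the sum grew. Rgs2, Rgs4 and Rgs16 together held 24.5% and 26.3% in the silenced libraries, 42.8% and 40.6% after 2 h, and 42% and 41.8% after 6 h. The shares of the R7 genes (32.7%, 29.8% and 30.1%) and the R12 genes (14.7%, 13.3% and 15.1%) moved less. The R4 genes together held 46.9%, 54.1% and 51.8%, and Rgs17, the RZ member, 5.7%, 2.78% and 2.95%. In TPM, both 6 h libraries lay above both 0 h libraries for 6 of the 10 genes, as they did for 32.7% of all genes tested. In normalized counts this held for 7 of 10, Rgs8 being the addition, and for 40.9% of all genes.

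**Figure D3:**
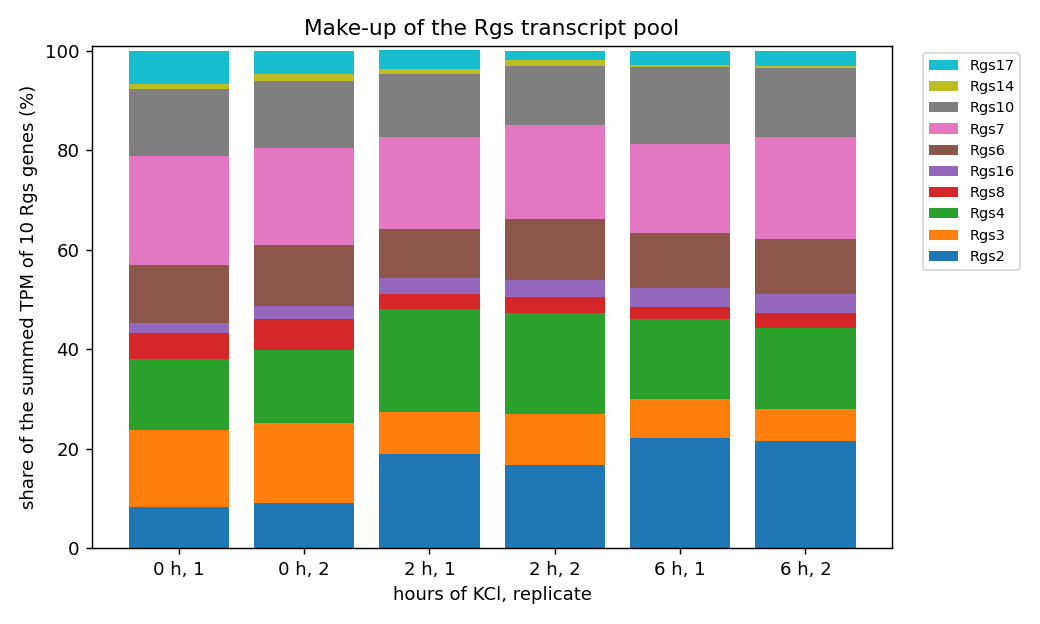
Share of the summed TPM of the 10 Rgs genes (vertical axis, percent, from 0) in each of the 6 libraries (horizontal axis), stacked by gene. The band of Rgs2 widened from a mean of 8.7% at 0 h to 21.9% at 6 h, and that of Rgs3 narrowed from 15.8% to 7.2%. The mean level of Rgs3 went from 52.6 to 46.8 TPM while the sum grew.

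The effective length of a gene is a mean over its transcripts, weighted by their estimated abundance, of the positions at which a fragment can start. It moves with the mix of transcripts and, to a lesser degree, with fragment size: Rgs16, with 1 annotated transcript of 2339 bases, ranged from 2016.72 to 2037.04 bases. For Rgs2 it was 2108.36 and 2074.98 bases before KCl, 2569.42 and 2604.72 after 2 h, and 2345.44 and 2292.5 after 6 h. The groups did not overlap, and 2 h was the longest. Rgs2 has 4 annotated transcripts of 588 to 3021 bases. The log2 length ratio was 0.31 ± 0.02 (SE) at 2 h (limma adjusted p = 0.0678), 0.15 at 6 h (adjusted p = 0.0734) and -0.16 from 2 h to 6 h (adjusted p = 0.0873), so none passed. Among 9 members with a mean of at least 100 expected counts, 0 were called for length (adjusted p of at most 0.05 and a log2 ratio of at least 0.2 in size), and 2, Rgs2 and Rgs7, had an unadjusted p under 0.05 in at least 1 comparison. Length calls were rare among the 11233 genes tested, at 0.0356% at 2 h, 0.525% at 6 h and 0.116% from 2 h to 6 h. TPM divides by this length and is scaled to a fixed total per library, and the rise of Rgs2 at 2 h was 2.6-fold in TPM and 3.65-fold in normalized counts. For Rgs4, whose listed length was 2941 bases in every library, these values were 1.78 and 2.02. For Rgs17 the 2 h replicates differed in length as well as in count, at 7435.06 and 5862.18 bases.

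**Figure D4:**
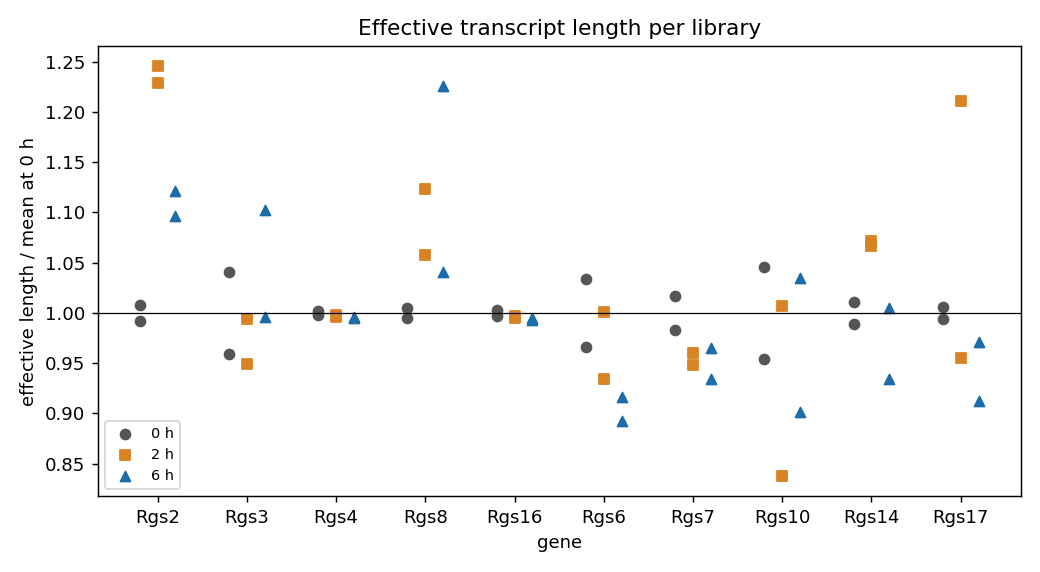
Effective length of each Rgs gene divided by its mean at 0 h (vertical axis, which does not start at 0) for each library, by gene (horizontal axis) and time (circles 0 h, squares 2 h, triangles 6 h). Both 2 h libraries of Rgs2 lie above its 6 h and 0 h libraries, and the 2 h libraries of Rgs17 lie apart from each other.

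The genes whose profile was most like that of each called member were found among 11183 genes by the root mean square difference of centred log2 normalized counts over the 6 libraries. Nearest to Rgs2 were Peg10 (0.128), Errfi1 (0.154) and Scg2 (0.155), of which Scg2 encodes the granule protein secretogranin. Dhx15 (0.0549), Nedd9 (0.0551) and Etv5 (0.0561) were nearest to Rgs4. For Rgs16 they were Mir9-3hg (0.0764), Kdm3a (0.105) and Sipa1l2 (0.11). For Rgs10, they were Trp53bp2 (0.0405), Ranbp10 (0.0501) and Arhgap32 (0.0525), each of which had its highest counts at 6 h.

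Of 11 further Rgs genes, 8 had an adjusted p. Of these, 0 were called at 2 h, 1 was called higher at 6 h and 0 from 2 h to 6 h. Among all genes, 3.62% were called higher and 5.94% lower at 2 h, and 9.1% and 10.2% at 6 h. From 2 h to 6 h these shares were 10.1% and 8.02%. By adjusted p alone, 0 of the 8 were higher and 1 lower at 2 h (Rgs19, log2 -0.63, adjusted p = 0.000999), against 12.3% and 14.2% of all genes. At 6 h, 1 was higher and 1 lower (Rgs12 lower, -0.64, adjusted p = 5.68e-06), against 23.7% and 21.7%. From 2 h to 6 h, 0 were higher and 1 lower (Rgs12, -0.35, adjusted p = 0.018), against 24.1% and 21.2%. The called gene, named here although it was below the level set for naming, was Rgs5, known from pericytes. It had normalized counts of 8.88 and 13.5 before KCl, against 30 and 31.2 after 6 h (adjusted p = 0.0481), while the 8 vascular and pericyte markers summed to 5.34 and 6.62 TPM before KCl, against 4.43 and 4.56 TPM after 6 h. Of these markers Pdgfrb was called lower at 6 h (log2 -1.41, adjusted p = 3.74e-05) and Pecam1 higher (1.16, adjusted p = 0.0291). Rgs18 and Rgs21 were at 0 in every library. The difference in frequency between these genes and the 10 members was not tested.

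Partners that the R7 proteins need did not move together. Gnb5, the G beta subunit bound by Rgs6 and Rgs7, had normalized counts of 545.9 and 562.1 before KCl, 521.3 and 580.0 after 2 h, and 506.1 and 537.8 after 6 h, and passed no test (adjusted p = 0.978 at 2 h and 0.681 at 6 h). Rgs7bp, which anchors R7 complexes at the membrane, had 1927 and 1565 before KCl, 5784 and 2710 after 2 h, and 4657 and 4496 after 6 h. It was called higher at 2 h (log2 1.28 ± 0.44, adjusted p = 0.0178) and at 6 h (1.39 ± 0.44, adjusted p = 0.00511), with replicates at 2 h far apart. The other called gene of the 5 partners was Rgs9bp, lower at 6 h (log2 -1.5, adjusted p = 0.00172) and also below the level set for naming.

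Among the alpha subunits that RGS proteins act on, 12 of 13 had an adjusted p. Of these 3 rose and 0 fell at 2 h, and 8 rose and 0 fell at 6 h by adjusted p (all genes: 12.3% higher and 14.2% lower at 2 h, 23.7% and 21.7% at 6 h), with a median log2 change of 0.3 and 0.54. The only call among them was Gna14 at 6 h, at a mean of 13.8 normalized counts. Beta and gamma subunits gave 0 calls in any comparison, with 1 rising and 0 falling at 2 h and 2 rising and 1 falling at 6 h of 12 by adjusted p. Of the 13 other proteins with an RGS homology domain, 1 was called: Grk5, a kinase that phosphorylates active receptors. Its normalized counts were 349.8 and 420.5 before KCl, 345.5 and 419.7 after 2 h, and 1615 and 1456 after 6 h (log2 1.99 ± 0.18 against 0 h, adjusted p = 4.21e-28). By adjusted p, 2 of the 13 rose and 1 fell at 2 h, and 3 rose and 4 fell at 6 h. Among all genes, 9.1% were called higher and 10.2% lower at 6 h, and 10.1% and 8.02% from 2 h to 6 h. Ric8b, a chaperone of alpha subunits, was the single call among 5 other modulators, lowest at 2 h (1008 and 1009) and highest at 6 h (2679 and 2519, log2 1.37 ± 0.11 from 2 h, adjusted p = 6.91e-33).

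Of 26 receptors that couple to Gi/o, 2 were called higher and 2 lower at 2 h, 3 higher and 5 lower at 6 h, and 2 higher and 3 lower from 2 h to 6 h. Among all genes 3.62% were called higher and 5.94% lower at 2 h, and 9.1% and 10.2% at 6 h. From 2 h to 6 h these shares were 10.1% and 8.02%. The somatostatin receptor gene Sstr2 had 251.2 and 255.3 normalized counts before KCl, 841.8 and 956.3 after 2 h, and 1308 and 1322 after 6 h (log2 2.38 at 6 h, adjusted p = 1.13e-57). Grm4, a glutamate receptor gene, was called lower at 6 h (log2 -1.73, adjusted p = 4.25e-09). Among 13 genes of Gq-coupled receptors, whose signalling Rgs2 is known to dampen, 0 were called at 2 h, and 1 higher and 2 lower at 6 h. From 2 h to 6 h, 2 of the 13 were called higher and 2 lower. The neurotensin receptor gene Ntsr1 fell from 1919 and 1777 at 0 h to 216.1 and 243.1 at 6 h (log2 -3.01, adjusted p = 2.81e-73). The muscarinic receptor gene Chrm3 rose from 530.8 and 490.5 to 1552 and 1330 (log2 1.5, adjusted p = 5.2e-21). Of 8 effector genes, 0 were called at 2 h, 2 higher and 1 lower at 6 h, and 2 higher and 1 lower from 2 h to 6 h. Kcnj3, a subunit of the potassium channels opened by G beta gamma, rose from 933.0 and 785.4 to 4679 and 4694 (log2 2.45, adjusted p = 8.16e-28), and Kcnj9, another subunit, fell from 276.1 and 276.4 to 133.8 and 117.2 (log2 -1.14, adjusted p = 1.22e-07).

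**Figure D5:**
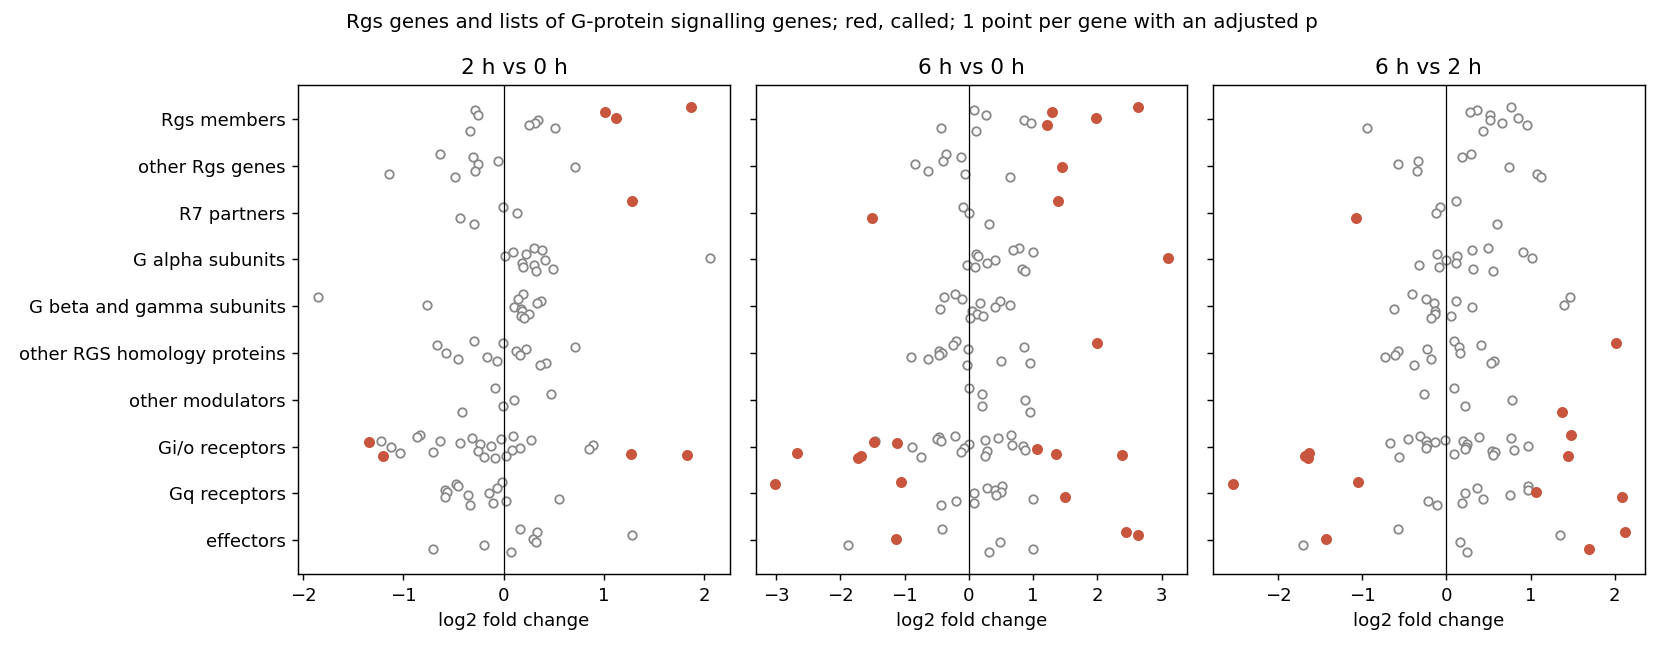
Log2 fold change (horizontal axis) of every gene with an adjusted p in the Rgs set and in 9 lists of G-protein signalling genes (vertical axis) for the 3 comparisons, red where called. All called Rgs members lie to the right of 0, whereas the called receptor genes lie on both sides.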

How the data were processed

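The authors trimmed reads with Trim Galore and mapped them to mm10, and the submitters' processing notes name RSEM 1.3.0 and Bowtie2 2.2.9. The kit was stranded. The strand setting of RSEM and the annotation release are not given in the sources used here. The deposited expected counts are not normalized, and the authors' TPM and effective length come from the same RSEM run. The deposited FPKM were not used.

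Expected counts were rounded, and 22515 genes counted in at least 1 library were fitted together in DESeq2 1.42.0 (R 4.3.3; Wald test, Benjamini-Hochberg adjustment, 6 libraries, 2 per group), with the study's thresholds of adjusted p at most 0.05 and an absolute log2 fold change above 1. Effective length was tested with limma 3.58.1 on the log2 scale. Alternatives included edgeR 4.0.16. Scripts were tested on simulated data. Intervals are 95% (1.96 SE). Symbols were matched for 42462 genes. The 10 members and all lists were chosen with earlier results of these data known. From each list, at most the 3 called genes with the largest change and a mean normalized count of at least 50 were to be named in a comparison; exceptions are stated. Precision from counts covers counting error only.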

Additional observations from a re-analysis of the deposited data

How the results depend on the processing

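With 2 libraries per group, leaving 1 out leaves a lone sample that is assumed to vary like the other groups. Of 390 recomputed member values over 13 settings, 369 kept their direction and their call, 4 lost the call, 9 gained it and 8 turned sign. By the adjusted p alone 38 changed sides, 24 no longer passing (of Rgs4, Rgs6, Rgs7, Rgs8 and Rgs14) and 14 newly passing (of Rgs3, Rgs8 and Rgs17). Those that turned were of Rgs17 and Rgs3 and never passed the test. Library totals as size factors shifted the median log2 fold change of the 14668 genes with a mean normalized count of 10 or more to -0.156 at 2 h, -0.251 at 6 h and -0.075 from 2 h to 6 h, against 0.011, -0.004 and 0.005. The causes of the changes below were not tested.

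With library totals, 1 member was called higher at 2 h (Rgs2), 1 was called lower from 2 h to 6 h (Rgs14), Rgs3 at 6 h was -0.167, Rgs17 at 6 h was -0.134, and 1032 of all genes were called higher at 6 h instead of 1572. GC correction, alone or with the replicate block, called 1 member higher from 2 h to 6 h (Rgs10, 1.001 and 1.000), and Rgs17 at 6 h was -0.149 and -0.105. Leaving out each library in turn gave 2 to 3 members called higher and 0 to 1 lower at 2 h, 4 to 5 higher and 0 lower at 6 h, and 0 to 1 higher and 0 to 1 lower from 2 h to 6 h. For Rgs17 the same settings ranged from -1.317 to 0.227 at 2 h, from -0.156 to 0.436 at 6 h and from -0.123 to 1.422 from 2 h to 6 h, with 0.000 at 2 h without 0 h replicate 1.

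The labels do not say whether the replicate numbers pair the libraries. Libraries of 1 number deviated from their group means with correlations of 0.281 (0 h and 2 h), -0.00226 (0 h and 6 h) and 0.152 (2 h and 6 h). These values cannot settle the pairing, because the replicate ratios also went with GC content in every group. With the replicate block, 3 members were called higher and 0 lower at 2 h, 4 and 0 at 6 h, and 0 and 0 from 2 h to 6 h, as without it, and 0 members were called for length. Rgs7 at 2 h had an adjusted p of 0.08 with the block in DESeq2. Depth limits Rgs14 most, with at most 142 counts in a library.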
